A study of Mus musculus with 12 samples.

Results

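The nuclear genome encodes nearly all subunits of the oxidative phosphorylation complexes, all proteins of the mitochondrial ribosome and the machinery that imports these proteins. The transcripts described here are those whose symbol begins like a subunit or assembly factor of complex I (Nduf), complex III (Uqcr), complex IV (Cox4 to Cox8 and Cox10 to Cox19) or ATP synthase (Atp5), is Sdha, Sdhb, Sdhc or Sdhd of complex II, or begins like a mitochondrial ribosomal protein (Mrpl, Mrps) or a translocase of the inner (Timm) or outer (Tomm) membrane. In the table of m6A peaks these symbols held 517 of 37118 peaks, in 196 of 11891 annotated genes. All 517 passed the filter on low counts. They were picked by symbol. In 91 of these peaks the annotation named another gene as well, and 498 of the 517 overlapped the RefSeq gene of that symbol.

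The livers came from male wild-type C57BL/6 mice, 6 to 8 weeks old at the start. The cadmium mice were given CdCl2 by gavage at 20 mg/kg/day, and the control mice 0 mg/kg/day, until day 90. Each group held 6 animals per the labels and 3 m6A immunoprecipitation (IP) libraries, numbered by batch 1 to 3, and no source used here says whether a library came from 1 animal. Numbered samples below are these libraries. In this assay (MeRIP-seq) RNA fragments that an anti-m6A antibody binds are sequenced, so a peak's count follows both the amount of the transcript and the share of it that is methylated. Input libraries were not used here, and the amount and the share cannot be told apart. In whole liver, fewer cells of a type and less RNA per cell cannot be told apart either.

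Summed counts over all peaks were 40174736, 51205200 and 50171237 in the cadmium livers, against 52338612, 46474259 and 46572869 in the control livers. Levels are given as CPM, counts relative to the scaled total of their library. The 5 hepatocyte markers (such as Alb) summed to 23255 to 27339 CPM in cadmium livers and 26533 to 29058 CPM in control livers, and none of their 37 peaks passed the test in edgeR (4 had an unadjusted p below 0.05, and DESeq2 called 2). Of all 37088 tested peaks, 8086 had an unadjusted p below 0.05, and DESeq2 called 3683. The median log2 change of the 37 hepatocyte marker peaks was -0.10, with 27 below 0. Hnf4a summed to 915, 952 and 829 CPM in cadmium livers against 1227, 1132 and 1103 CPM in control livers, which did not overlap. The sums of Alb, Apoa1, Apob and Ttr overlapped. Markers of stellate cells and fibroblasts summed to 186 to 227 CPM in cadmium livers against 116 to 152 CPM in control livers. Of their 11 peaks 4 were higher, where 3.55% of all tested peaks were. Of the 11, 0 had a log2 change below 0, 9 had an unadjusted p below 0.05, and DESeq2 called 7. The 4 endothelial markers summed to 90.9 to 142 CPM in cadmium livers against 99.0 to 147 CPM in control livers, and 2 of 4 bile duct markers with a peak to 7.70 to 29.5 CPM in cadmium livers against 6.64 to 9.40 CPM in control livers. The 5 bile duct peaks had a median log2 change of 1.29, with 0 below 0. In edgeR 0 of these 5 were called, though all 5 had an unadjusted p below 0.05, and DESeq2 called 4. Of the 15 endothelial peaks 0 had an unadjusted p below 0.05. Of 12 macrophage peaks 6 were lower, all in Cd163 (4.30, 2.79 and 2.83 CPM in cadmium livers against 16.3, 21.1 and 20.6 CPM in control livers), while Adgre1 and Cd68 held no peak. Over all tested peaks 2.72% were lower. The other macrophage markers did not fall. Ptprc had 2.88, 3.33 and 3.35 CPM in cadmium livers against 1.87, 2.59 and 1.90 CPM in control livers, which did not overlap. Clec4f had 95.0, 119 and 81.2 CPM in cadmium livers against 88.4, 92.9 and 71.1 CPM in control livers, which overlapped. The muscle markers Myh7, Actn2 and Ckm held no peak, while Des had 3.17, 3.47 and 3.24 CPM in cadmium livers against 2.30, 2.47 and 2.79 CPM in control livers, which did not overlap and was not called. The alternative complex IV subunits Cox4i2, Cox6a2, Cox7a1 and Cox8b held no peak. The part of these marker differences in the results below was not tested.

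The respiratory chain passes electrons from NADH (complex I) and succinate (complex II) through ubiquinone, complex III and cytochrome c to oxygen at complex IV, and the proton gradient built on the way drives ATP synthase. Subunits from the nucleus are made in the cytosol, enter through the TOM complex of the outer membrane and are sorted by small chaperones of the space between the membranes and by the TIM complexes. The few core subunits encoded in mitochondrial DNA are made on the mitochondrial ribosome. Many of the nuclear genes are transcribed from GC-rich promoters bound by NRF1 and by ETS factors such as GABPA.

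The 250 bases upstream of the start site are shown for the 5 genes whose lower peaks in cadmium livers (13 of 16) carried no other gene's symbol and whose promoter is in the table, so that the promoters of genes that moved together can be compared. They come from RefSeq on GRCm38.p6 and read 5′ to 3′ on the gene's strand. Capitals mark the NRF1 letters (GCGCA followed by its reverse complement TGCGC), the ETS letters CCGGAAG and the E-box letters CACGTG, on either strand. The windows lie at chr4:24897833-24898082 (plus strand) for Ndufaf4, chr12:71136676-71136925 (minus) for Timm9, chrX:134541671-134541920 (minus) for Timm8a1, chr4:155802628-155802877 (plus) for Mrpl20 and chr8:126945922-126946171 (minus) for Tomm20.
Ndufaf4: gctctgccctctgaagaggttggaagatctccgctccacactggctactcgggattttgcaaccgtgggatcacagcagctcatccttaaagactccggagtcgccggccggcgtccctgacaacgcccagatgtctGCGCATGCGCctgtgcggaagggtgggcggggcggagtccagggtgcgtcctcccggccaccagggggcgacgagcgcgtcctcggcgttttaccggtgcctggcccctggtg
Timm9: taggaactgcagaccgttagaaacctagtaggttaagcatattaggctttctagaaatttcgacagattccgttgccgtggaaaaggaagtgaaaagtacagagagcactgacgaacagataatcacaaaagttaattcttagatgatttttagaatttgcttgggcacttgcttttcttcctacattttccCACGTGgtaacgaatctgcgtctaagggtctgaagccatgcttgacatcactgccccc
Timm8a1: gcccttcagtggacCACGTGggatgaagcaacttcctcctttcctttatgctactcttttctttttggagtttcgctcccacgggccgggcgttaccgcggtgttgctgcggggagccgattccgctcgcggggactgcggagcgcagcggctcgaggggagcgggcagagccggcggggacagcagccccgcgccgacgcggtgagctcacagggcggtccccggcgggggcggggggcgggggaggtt
Mrpl20: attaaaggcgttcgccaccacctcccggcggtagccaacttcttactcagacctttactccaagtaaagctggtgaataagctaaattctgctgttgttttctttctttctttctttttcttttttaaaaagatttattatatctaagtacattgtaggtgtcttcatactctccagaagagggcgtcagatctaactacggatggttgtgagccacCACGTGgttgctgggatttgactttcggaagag
Tomm20: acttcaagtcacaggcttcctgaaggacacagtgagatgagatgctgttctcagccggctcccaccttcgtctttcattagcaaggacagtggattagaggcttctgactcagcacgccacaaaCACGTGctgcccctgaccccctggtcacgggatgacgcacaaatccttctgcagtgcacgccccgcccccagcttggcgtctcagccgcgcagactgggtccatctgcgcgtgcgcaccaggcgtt

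Of these 5 windows the Ndufaf4 window held the NRF1 letters, beginning 113 bases upstream of the start. The other 4 each held 1 E-box, beginning 58 bases upstream in Timm9, 236 in Timm8a1, 33 in Mrpl20 and 126 in Tomm20. Of the genes with a lower peak shared with another gene, Cox10 held the ETS letters 27 bases upstream and Mrps6 held none of the 3 motifs. A window was in the table for 162 of the 196 genes, and for 7 of the 8 genes with a lower peak (Sdhc had none). The E-box was present in 4 of those 7 (57.1%), which were picked by their calls. It was present in 8.64% of the 162 and in 6.05% of all 27025 promoters off chromosome 18. The windows of Timm10 and Tomm70a, which were called lower only by gene sums, held the ETS letters and no E-box. In the same 7, the GC box (GGGCGG) was present in 71.4%, a metal response element of either form in 28.6% (35.2% of the 162), the NRF1 and ETS letters in 14.3% each, and CCAAT and the YY1 letters in 0. The NRF1 letters were present in 4.94% of the 162 and in 0.781% of all promoters, and the ETS letters in 23.5% and 7.05%. The ETS letters occurred in 3 of 6 outer membrane import genes and in 9.09% of 33 complex I subunit genes. Other motifs stood closer to the background: the GC box was in 43.8% of the 162 against 32.9% of all promoters, CCAAT in 37.0% against 34.5%, and the YY1 letters AAGATGG in 4.32% against 4.53%. The metal response element was searched as TGCACNC (11.7% against 10.2%) and as TGCGCNC (27.8% against 12.6%), which can overlap the end of the NRF1 letters. All searches covered both strands, and median GC content was 58.0% in the 162 windows and 52.0% in all promoters. A match is a stretch of letters and not a binding site.

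The m6A peak counts of these genes were slightly lower in cadmium livers as a body, and a few genes were much lower. The median log2 change (cadmium over control) of the 517 peaks was -0.14, against -0.0031 over all 37088 tested peaks. It was below 0 in 414 peaks, or 80.1%, against 50.5% of all tested peaks. The median standard error of 1 peak was 0.16, so a shift of this size was within the error of most single peaks. In edgeR's quasi-likelihood test with Benjamini-Hochberg adjustment over all tested peaks, 18 of the 517 (3.48%) had an adjusted p below 0.05, 16 of them lower and 2 higher. Among all tested peaks 6.27% were called, 2.72% lower and 3.55% higher. An unadjusted p below 0.05 was found in 52 of the 517 peaks and in 8086 of all 37088 tested peaks. The 16 lower peaks lay in 8 genes, which were Ndufaf4, Timm9, Timm8a1, Mrpl20, Sdhc, Cox10, Mrps6 and Tomm20.

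Every cadmium library lay below every control library in 105 of the 517 peaks (20.3%), against 12.5% of all tested peaks. Every cadmium library lay above every control library in 12 (2.32%), against 14.4%. Summed over the 517 peaks the level was 14362, 15910 and 16797 CPM in cadmium libraries 1, 2 and 3, against 16836, 17439 and 17563 CPM in control libraries 1, 2 and 3. The groups did not overlap, and cadmium library 3 lay just under control library 1. As a share of all tested peak counts, which needs no scaling between libraries, these sums came to 1.51%, 1.72% and 1.54% in cadmium livers and 1.58%, 1.88% and 1.66% in control livers, and here the groups overlapped.

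Cadmium library 1 was the lowest of the 6 samples in 274 of the 517 peaks (53.0%), against 17.5% of all tested peaks. It also had the smallest total count, and the red cell genes Hba-a1 and Hba-a2 stood apart in it. Hba-a1 had 129, 36.0 and 42.7 CPM in cadmium libraries 1, 2 and 3 against 42.4, 72.2 and 74.7 CPM in control livers, and Hba-a2 had 142, 40.6 and 44.8 CPM in cadmium libraries against 44.2, 82.3 and 81.0 CPM in control libraries, while Hbb-bs and Hbb-bt held no peak, and Hba-a1 and Hba-a2 are near-identical genes whose reads could be split between them. The bile duct gene Sox9 was also highest there, with 27.5, 7 and 18.5 CPM in cadmium livers against 5.95, 6.41 and 8.54 CPM in control livers. Without cadmium library 1 the median log2 change of the 517 peaks was -0.07. Paired within batches, the median change was -0.23 in batch 1, -0.12 in batch 2 and -0.07 in batch 3, beside 0.0050, 0.0084 and -0.01 over all tested peaks. When the counts of all peaks of a gene were summed, 10 of the 196 genes were called, all lower, where 9.86% of all 11880 genes were called and 4.11% were lower. The log2 change of the summed counts was below 0 in 172 of the 196. Its median was -0.15, against -0.0021 over all genes.

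**Figure D1:**
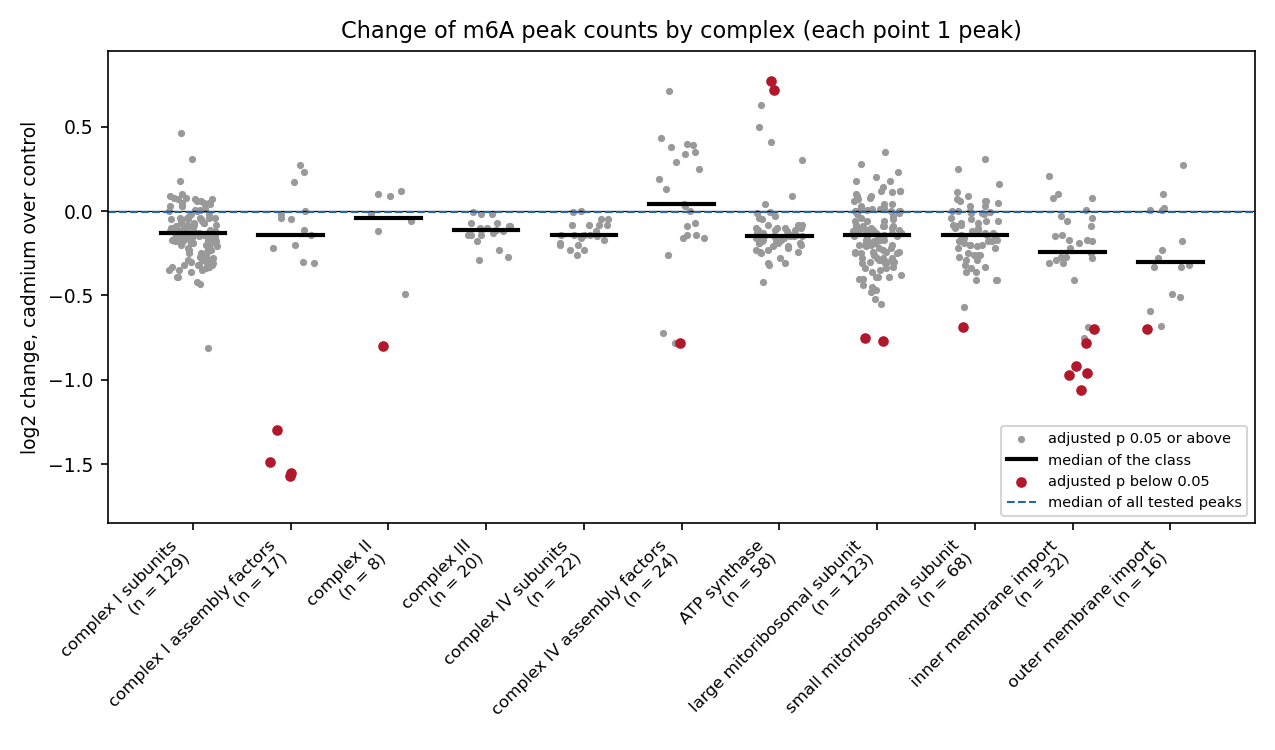
Log2 change of each peak (cadmium over control, y axis) by complex (x axis, with the number of peaks); each point is 1 peak, red points have an adjusted p below 0.05 and black bars are class medians. The 4 red points between -1.57 and -1.30 are Ndufaf4, the 6 red points of inner membrane import are Timm9 and Timm8a1, and all classes but the complex IV assembly factors have a median below 0.

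The 41 genes of complex I subunits held 129 peaks, and none was called. Of these, 10 had an unadjusted p below 0.05, where 8086 of all 37088 tested peaks did, and DESeq2 also called 0. The median log2 change was -0.13, and 105 of the 129 were below 0. Without cadmium library 1 the median was -0.05, with 83 below 0. Every cadmium library was below every control library in 22 peaks (17.1%, against 12.5% of all tested peaks) and above in 0 (against 14.4%). Ndufs1, the largest iron-sulphur subunit, had 8.91, 6.96 and 6.31 CPM in its leading peak in cadmium livers against 7.96, 10.4 and 8.72 CPM in control livers, a log2 change of -0.29 ± 0.18 (SE) with an adjusted p of 0.400. That peak is shared with Ino80dos, its groups overlapped, and a leading peak here is the peak of a gene with the most counts. Ndufv1, which binds NADH, had 27.9, 38.4 and 42.1 CPM in cadmium livers and 37.9, 35.3 and 39.2 CPM in control livers, which also overlapped.

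The accessory subunit Ndufa12 had the largest fitted decrease of a leading peak among complex I subunits. It had 25.8, 24.8 and 28.1 CPM in cadmium livers against 33, 41.2 and 29.0 CPM in control livers. The groups did not overlap, and the log2 change of -0.39 ± 0.17 had an adjusted p of 0.20. Ndufa5, another accessory subunit, summed over its 4 peaks to 95.9, 94.4 and 101 CPM in cadmium livers and to 119, 123 and 126 CPM in control livers. The groups stood apart by more than their spread, but the log2 change of -0.34 ± 0.11 had an adjusted p of 0.0745. The lowest single value of the class, -0.81 ± 0.28, belonged to peak 1 of Ndufab1 (the mitochondrial acyl carrier protein), at 1.35, 1.05 and 0.936 CPM in cadmium livers against 1.49, 2.19 and 2.15 CPM in control livers, with an adjusted p of 0.117. The largest increase of a leading peak was that of Ndufs6b, in a peak shared with Slc28a1, with 1.42, 2.41 and 1.92 CPM in cadmium livers against 1.43, 1.35 and 1.40 CPM in control livers. It overlapped, and its change of 0.46 ± 0.27 had an adjusted p of 0.349.

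Complex I is put together with the help of assembly factors that are not part of the finished enzyme, and 1 of these, Ndufaf4, had the steepest change of all 196 genes. Its 4 peaks lie on chromosome 4 (mm10), at 24898183-24898389, 24898515-24898763, 24901605-24902268 and 24903123-24903486, where coordinates are those of the deposited table, which does not state whether starts count from 0 or 1. Their centres lie at 2.93%, 8.04%, 55.7% and 75.5% of the gene's length from its 5′ end. Peak 3, the leading peak, had 13.5, 17.3 and 10.2 CPM in cadmium livers against 33.1, 47.5 and 41.5 CPM in control livers. Peak 1 had 4.78, 7.98 and 5.35 CPM in cadmium livers against 13.3, 18.9 and 21.0 CPM in control livers. In all 4 peaks the highest cadmium library was below the lowest control library.

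The log2 changes of Ndufaf4 peaks 1 to 4 were -1.55, -1.49, -1.57 and -1.30, with adjusted p of 0.00505, 0.00798, 0.00321 and 0.00251, so that the level in cadmium livers was 0.336 to 0.405 of that in control livers. Summed over the gene it was 35.8, 47.2 and 29.6 CPM in cadmium livers against 88.7, 116 and 116 CPM in control livers, a log2 change of -1.51 ± 0.19 with an adjusted p of 0.00266. Within batches 1, 2 and 3 the change was -1.31, -1.30 and -1.96. All 4 peaks were still called when any 1 of the 6 libraries was left out. The other 6 assembly factors held 13 peaks, of which none was called. By gene sums Ndufaf3 (0.24) and Ndufaf8 (0.21) were the highest among them, and Ndufaf1, Ndufaf2, Ndufaf5 and Ndufaf7 had summed changes between -0.24 and -0.03.

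Complex II is the smallest complex and has no subunit from mitochondrial DNA. Its 4 genes held 8 peaks with a median log2 change of -0.04, which turned to 0.06 without cadmium library 1 and ran from -0.11 (without cadmium library 3) to -0.01 (without control library 1) when another library was left out. Sdha, the flavoprotein, had 34.2, 40.4 and 43.8 CPM in cadmium livers and 37.7, 36.8 and 35.9 CPM in control livers. Sdhb, the iron-sulphur protein, had 82.4, 109 and 126 CPM in its leading peak in cadmium livers and 99.3, 90.0 and 109 CPM in control livers. Both overlapped between groups.

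Sdhc, a membrane anchor of complex II, had 1 called peak of 3. Peak 2 (chromosome 1, 171143250-171143578) had 15.3, 15.2 and 16.9 CPM in cadmium livers against 29.4, 20.6 and 32.4 CPM in control livers, which did not overlap. It fell by a log2 change of -0.80 ± 0.18 with an adjusted p of 0.0300. Peaks 1 and 3 of the same gene had -0.06 and -0.12, and the gene's sum had -0.29 with an adjusted p of 0.206. The call was lost when any cadmium library or control library 1 or 3 was left out, with adjusted p of 0.0101 to 0.108 over the 6 fits. Sdhd, the other anchor, had 15.7, 18.8 and 16.1 CPM in cadmium livers against 21.1, 32.5 and 17.5 CPM in control livers, and these overlapped, with a log2 change of -0.49 ± 0.22 and an adjusted p of 0.218.

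All 20 peaks of the 8 complex III genes had a log2 change below 0, with a narrow range of -0.29 to -0.0057 and a median of -0.11. None was called in edgeR, 0 had an unadjusted p below 0.05, and DESeq2 called 0. With scaling by library size alone 17 of the 20 were below 0. Without cadmium library 1 the median was -0.06 with 16 below 0, and without cadmium library 3 it was -0.17. Uqcrfs1, the Rieske iron-sulphur protein that hands electrons on to cytochrome c1, had 118, 124 and 117 CPM in cadmium livers against 133, 148 and 151 CPM in control livers. The groups did not overlap, and the log2 change of -0.27 ± 0.13 had an adjusted p of 0.272. Uqcrc1, a core protein, had 44.3, 56.1 and 60.4 CPM in cadmium livers and 56.6, 61.9 and 63.4 CPM in control livers in its leading peak, with some overlap. Uqcr11 was closest to 0 among leading peaks, at -0.02 ± 0.14.

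Complex IV subunits also lay narrowly below 0, with 21 of 22 peaks below 0, a median of -0.14 and a range of -0.26 to 0.0006. Without cadmium library 1 the median was -0.08 with 17 below 0. None of the 22 was called in edgeR, 0 had an unadjusted p below 0.05, and DESeq2 called 0. Cox4i1, the regulatory subunit of most tissues, had 104, 105 and 120 CPM in cadmium livers against 131, 119 and 129 CPM in control livers. Cadmium library 3 lay above control library 2, and the log2 change was -0.20 ± 0.14. Cox8a had 79.8, 103 and 104 CPM in cadmium livers and 98.6, 96.3 and 92.7 CPM in control livers, a change of 0.0006 whose sign turned under other scalings.

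The assembly factors of complex IV were the 1 class with a median above 0, at 0.04, and 14 of their 24 peaks were above 0. The median was 0.01 without cadmium library 3, 0.02 without control library 1, 0.07 without cadmium library 1 and 0.11 without control library 3. Of the 14, 8 came from the 9 peaks of Cox16, all shared with the predicted gene Gm20498. Where only peaks with a single symbol were fitted, the median over the 11 remaining was 0.0078. Cox10 makes haem A's precursor by adding a farnesyl tail, and its peak 2 (chromosome 11, 63963767-63964439, shared with 9630013K17Rik) had 11.0, 15.5 and 11.4 CPM in cadmium livers against 16.3, 24.7 and 24.1 CPM in control livers.

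The groups did not overlap in that peak, and Cox10 fell by a log2 change of -0.78 ± 0.20 with an adjusted p of 0.0486. Its 3 peaks had similar values of -0.78 to -0.72, and the sum of the gene fell by 0.79 on the log2 scale, with an adjusted p of 0.0246. The call of peak 2 was lost without cadmium library 1 or 3 or control library 2 or 3, with adjusted p of 0.0197 to 0.201. Cox15, which converts the product of Cox10 into haem A, had 19.6, 22.5 and 20.5 CPM in cadmium livers and 18.3, 28.6 and 22.2 CPM in control livers, an overlap with a change of -0.14 ± 0.18. Cox14 had the highest leading peak change of the class, 0.29 ± 0.17, with an adjusted p of 0.357.

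ATP synthase genes held 58 peaks in 19 genes, with a median log2 change of -0.15, which was -0.08 without cadmium library 1. All 47 of those peaks that carried a single symbol were below 0, and 46 of the 47 were when single-symbol peaks were fitted alone. The alpha subunit Atp5a1 had 50.2, 53.9 and 54.0 CPM in its leading peak in cadmium livers against 60.7, 56.4 and 52.3 CPM in control livers, and the catalytic beta subunit Atp5b had 120, 133 and 140 CPM in cadmium livers against 129, 140 and 137 CPM in control livers. Both overlapped, with changes of -0.10 ± 0.14 and -0.05 ± 0.13. Atp5j, coupling factor 6 of the stalk, had the lowest leading peak, -0.32 ± 0.17, with an adjusted p of 0.297. The highest was that of Atp5l-ps2 (0.04 ± 0.19), whose symbol marks a pseudogene, in a peak shared with Brip1.

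The 2 higher calls of the whole group were annotated to Atp5o, the stalk subunit OSCP, but did not lie in it. Of the 9 peaks with that symbol, 7 lay outside RefSeq Atp5o and were shared with Itsn1, an endocytic scaffold gene. Peak 6 had 7.05, 7.23 and 8.01 CPM in cadmium livers against 3.58, 4.88 and 5.07 CPM in control livers, and peak 7 had 4.09, 4.27 and 3.98 CPM in cadmium livers against 2.26, 2.15 and 2.85 CPM in control livers. They rose by 0.72 ± 0.18 and 0.77 ± 0.19, with adjusted p of 0.0426 and 0.0406, and both calls were lost whichever library was left out (adjusted p of 0.0538 to 0.184). The 2 peaks inside Atp5o, shared with Gm15976, had -0.24 and -0.11, and neither was called.

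The mitochondrial ribosome was the largest group, with 123 peaks in 49 genes of the large subunit and 68 peaks in 28 genes of the small subunit. Both had a median log2 change of -0.14, with 97 and 55 peaks below 0. Without cadmium library 1 the medians of the large and small subunit were -0.09 and -0.07, with 82 and 44 peaks below 0, and without control library 2 that of the small subunit was -0.09. Only Mrpl20 and Mrps6 held called peaks, and gene sums also called these genes alone. Mrpl20 peak 2 (chromosome 4, 155808445-155808785) had 14.9, 14.3 and 14.6 CPM in cadmium livers against 20.3, 29.6 and 23.7 CPM in control livers. Peak 1 (155806847-155807038) had 7.47, 8.23 and 9.82 CPM in cadmium livers against 12.5, 17.1 and 14 CPM in control livers.

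Neither Mrpl20 peak overlapped between groups. The log2 changes were -0.77 ± 0.18 and -0.75 ± 0.17 for peaks 1 and 2, with adjusted p of 0.0295 and 0.0262, and -0.77 for the sum with an adjusted p of 0.0110. Within batches 1, 2 and 3 the sum changed by -0.58, -1.06 and -0.64. Both peak calls were lost when any library but control library 1 was left out, with adjusted p up to 0.122.

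Peak 3 of Mrps6 (chromosome 16, 92078119-92079371, 1252 bp wide), shared with the inositol transporter gene Slc5a3 that lies inside Mrps6, had 12.1, 9.60 and 9.99 CPM in cadmium livers against 15.2, 20.2 and 15.6 CPM in control livers. All 3 cadmium libraries were below the control libraries, and it fell by -0.69 ± 0.17 with an adjusted p of 0.0412. Peaks 1 and 2, also shared with Slc5a3, had -0.57 and -0.41, while peak 4, which is shared with Gm49711 but not with Slc5a3, had -0.13. The counts cannot be divided between the genes that share them. Leaving out cadmium library 2 or 3 or control library 2 or 3 ended the call, with adjusted p up to 0.181.

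Other ribosomal genes moved less. Mrpl12, which binds at the ribosome's stalk base, had 133, 181 and 161 CPM in its leading peak in cadmium livers against 174, 214 and 176 CPM in control livers, a change of -0.25 ± 0.16 with an overlap between groups. Mrps21 summed to 56.7, 60.6 and 64.6 CPM in cadmium livers against 78.3, 78.4 and 76.2 CPM in control livers. No value overlapped, and its change of -0.36 ± 0.11 had an adjusted p of 0.0661. Mrpl44 had the highest leading peak of the large subunit, at 16.5, 17.7 and 17.8 CPM in cadmium livers against 14.7, 14.2 and 15.6 CPM in control livers, a change of 0.23 ± 0.14 with an adjusted p of 0.382. In the small subunit the extremes of the leading peaks were Mrps12 (0.09 ± 0.15) and Mrps31 (-0.33 ± 0.19), and both overlapped between groups.

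**Figure D2:**
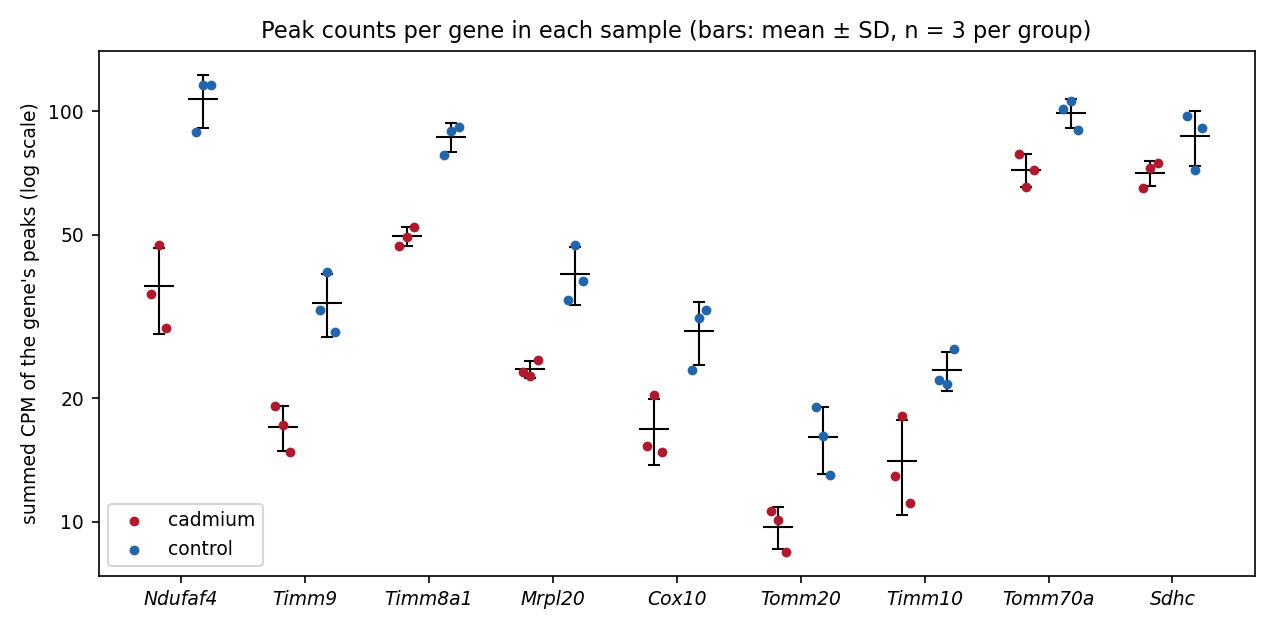
Summed CPM of all peaks of a gene in each sample (y axis, log scale) for 9 genes (x axis); points are samples, and bars are the mean ± SD of 3 libraries per group. Heights of different genes are not comparable because peak widths differ; in the first 8 genes every cadmium library lies below every control library, and in Sdhc the groups overlap.

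Genes of protein import held 7 of the 16 lower calls on 48 peaks, or 14.6%, where 2.72% of all tested peaks were lower. The 7 lay in Timm9, Timm8a1 and Tomm20 alone, so the share counts several peaks of the same gene. Without cadmium library 3, 0 inner and 0 outer membrane peaks were called. With scaling by library size alone, 4 inner and 0 outer membrane peaks were called. The inner membrane genes had a median log2 change of -0.24 over 32 peaks and the outer membrane genes -0.30 over 16 peaks, and every cadmium library lay below every control library in 15 and 8 of them. Without cadmium library 1 the medians were -0.14 and -0.24. By gene sums, Timm9, Timm8a1, Timm10, Tomm20, Tomm40l and Tomm70a fell, and of the remaining 16 import genes none was called. Whether import genes differed from the other classes was not tested.

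Timm9 and Timm10 encode the small chaperones that together carry hydrophobic proteins across the space between the membranes. Timm9 peak 1 (chromosome 12, 71123228-71123692) had 12.6, 12.4 and 10.8 CPM in cadmium livers against 20.8, 29.2 and 19.7 CPM in control livers. All 3 Timm9 peaks kept the groups apart, with log2 changes of -0.96, -1.06 and -0.97 and adjusted p of 0.0139, 0.0191 and 0.0230. The sum fell to 19.1, 17.2 and 14.8 CPM in cadmium livers, against 32.7, 40.6 and 28.9 CPM in control livers, a change of -1.0 ± 0.16 with an adjusted p of 0.00726. Peak 1 lost its call without cadmium library 3 (adjusted p 0.0842), peak 2 also without cadmium library 2 or control library 2 (up to 0.0991), and peak 3 without cadmium library 3 or control library 1 or 2 (up to 0.121).

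Timm10 moved the same way. Its 2 peaks had -0.75 and -0.69 with adjusted p of 0.0632 and 0.0684, and its sum was 12.9, 18.1 and 11.1 CPM in cadmium livers against 22.2, 21.6 and 26.3 CPM in control livers. The sums did not overlap, and their change of -0.74 ± 0.19 had an adjusted p of 0.0400. Within batches 1, 2 and 3 it was -0.78, -0.25 and -1.24.

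Timm8a1 encodes a chaperone of the same family, whose human counterpart TIMM8A is mutated in deafness-dystonia syndrome. Its sum over 3 peaks was 47.0, 49.3 and 52.3 CPM in cadmium livers against 78.3, 89.6 and 91.3 CPM in control livers. The groups were far apart for their spread, and the change of -0.80 ± 0.11 had an adjusted p of 0.00461. Peaks 1 to 3 had -0.92, -0.78 and -0.70 with adjusted p of 0.00997, 0.0154 and 0.0462. Peak 1 lost its call without cadmium library 3 (adjusted p 0.0713), peak 2 without cadmium library 3 or control library 3 (up to 0.0790), and peak 3 without any library but control library 1 (up to 0.151). Its partner Timm13 summed to 76.2, 101 and 96.6 CPM in cadmium livers and 105, 101 and 108 CPM in control livers, which met at 101, with a change of -0.20 ± 0.13.

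Among the receptors of the outer membrane, Tomm20, which binds presequences, had 1 peak (chromosome 8, 126934578-126934857) with 10.2, 10 and 8.38 CPM in cadmium livers against 17.9, 16 and 12.7 CPM in control livers. Again no library overlapped, and it fell by -0.70 ± 0.17 with an adjusted p of 0.0393, a call kept without control library 3 alone (adjusted p of 0.0429 to 0.192). Tomm70a, the receptor for carrier proteins, had -0.51 to -0.23 in 5 peaks. Its sum was 78.5, 65.3 and 71.8 CPM in cadmium livers against 101, 106 and 89.9 CPM in control livers, a change of -0.46 ± 0.12 with an adjusted p of 0.0439. Tomm40l, a paralogue of the channel protein, summed to 97.8, 119 and 93.2 CPM in cadmium livers against 141, 189 and 159 CPM in control livers. The change was -0.66 ± 0.15 (adjusted p 0.0252), but both peaks were shared with Nr1i3, the xenobiotic receptor CAR, and cannot be assigned to either gene.

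No core channel gene was called. Timm23, the presequence channel of the inner membrane, had 56.5, 67.5 and 60.2 CPM in cadmium livers and 67.4, 76.6 and 63.9 CPM in control livers. The groups overlapped, and the log2 change was -0.17 ± 0.15. Timm44, which holds the import motor to that channel, had 27.1, 37.4 and 34.9 CPM in its leading peak in cadmium livers and 35.1, 30.6 and 33.2 CPM in control livers, a change of 0.0089 ± 0.16. Tomm7 had 0.0046 (-0.0025 with RLE scaling) and Tomm6 had 0.10, and Tomm40 had no peak in the table. The highest leading peaks of the inner and outer membrane genes were Timm50 (0.10 ± 0.17) and Tomm34 (0.27 ± 0.17), and neither was called.

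**Figure D3:**
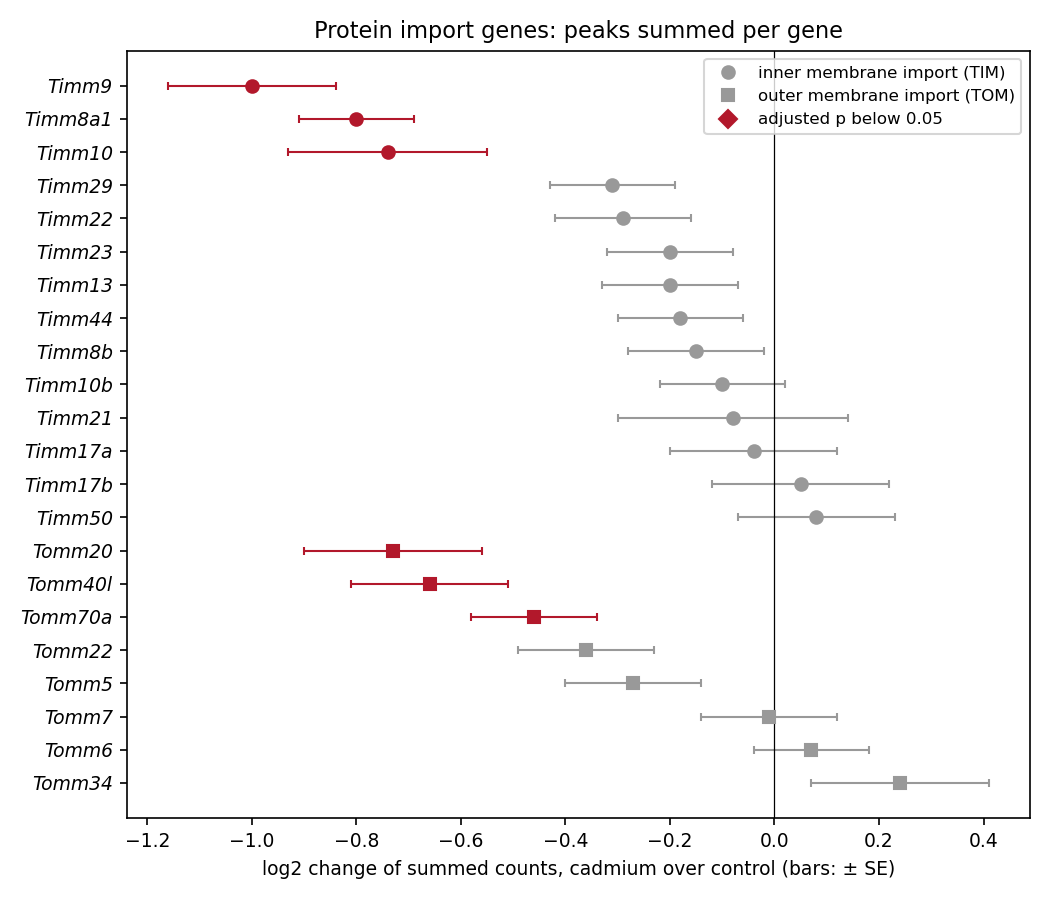
Log2 change (cadmium over control, x axis) of the counts summed over all peaks of each of the 22 import genes (y axis); circles are inner membrane and squares outer membrane genes, bars are ± 1 SE, and red marks an adjusted p below 0.05. The 6 red genes lie between -1.0 and -0.46, and 4 of 22 lie above 0.

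Peaks were then compared within genes. A test of each peak against the other peaks of its gene (edgeR's diffSpliceDGE) called 0 of 462 member peaks. The lowest adjusted p was 0.703, for Atp5o peak 6, and 6 peaks had an unadjusted p below 0.05. Over all genes with several peaks, 26 of 31232 peaks (0.0832%) departed from their gene, and 378 had an unadjusted p below 0.05. In 140 of the 196 genes every peak had a log2 change below 0, though 55 of the 196 held a single peak. The same count over all genes was not made.

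**Figure D4:**
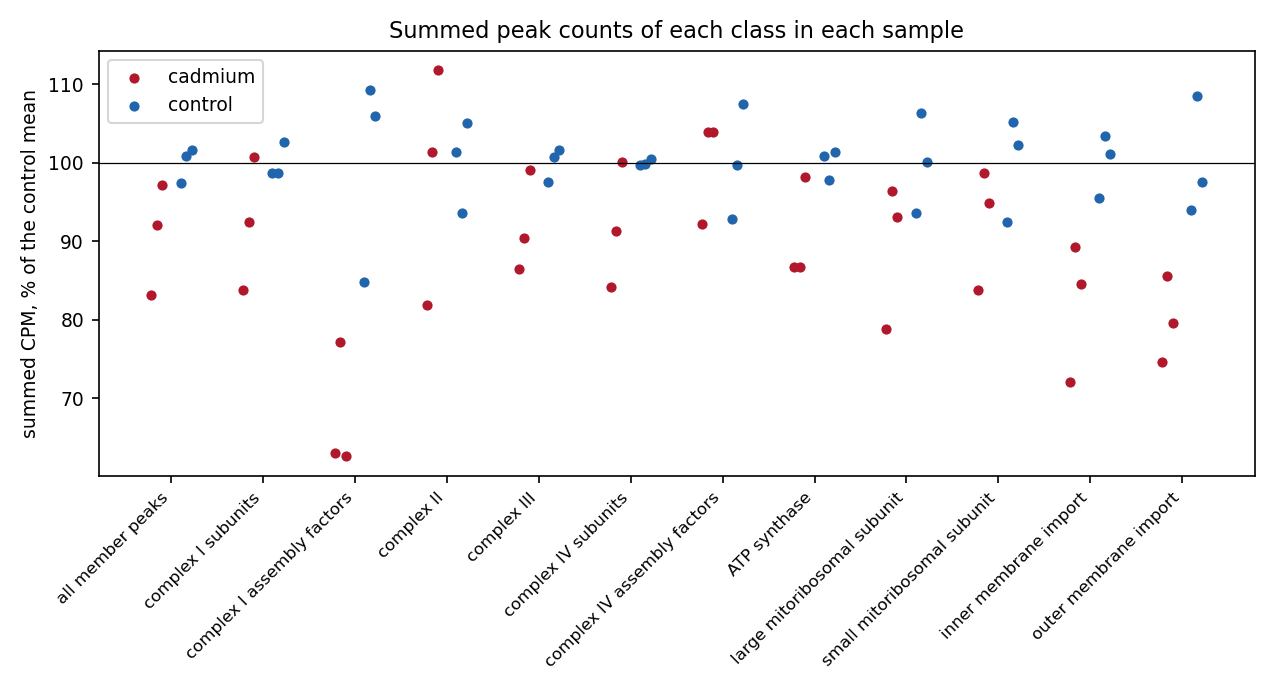
Summed CPM of each class in each library, as a percent of the mean of the 3 control libraries (y axis), for all 517 peaks and for each class (x axis); each point is 1 library. Cadmium library 1 is the leftmost red point of each class. It is the lowest or level with the lowest cadmium library in every class but the complex I assembly factors. There it has 134 and library 3 has 133 CPM. The groups are fully separated in complex I assembly factors and in both import classes. Of the single complex I assembly factors, Ndufaf4 is the only gene whose summed groups do not overlap.

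The groups of summed levels in the plot of sums by complex overlapped for complex I subunits (4112, 4535 and 4937 CPM in cadmium livers against 4839, 4839 and 5033 CPM in control livers). They also overlapped for complex II, complex III, complex IV, its assembly factors and both ribosomal subunits. For ATP synthase the sums were 2689, 2689 and 3042 CPM in cadmium livers against 3125, 3031 and 3141 CPM in control livers, where cadmium library 3 passed control library 2. For inner membrane import they were 415, 514 and 487 CPM in cadmium livers against 550, 595 and 582 CPM in control livers, and did not overlap. For outer membrane import they were 362, 415 and 386 CPM in cadmium livers against 456, 526 and 473 CPM in control livers, which did not overlap either. Both import sums include the genes called lower, and no class was summed without its called genes.

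The genes carried a median of 3.00 peaks, against 2.00 for all annotated genes, while the mean was 2.64 against 2.99. A single peak was found in 55 genes (28.1%), against 36.4% of all genes, and the most peaks were 9, in Atp5o, Cox16 and Ndufa10, where the most of any gene was 116. Complex I subunits and ATP synthase had means of 3.15 and 3.05 peaks per gene, and outer membrane import genes 2.00. Median width was 223 bp against 229 bp over the table, and class medians ranged from 202 bp (ATP synthase) to 264 bp (small ribosomal subunit). The widest peak, 2644 bp, was annotated to Mrps24 and to the neighbouring Urgcp, and lay outside RefSeq Mrps24.

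Peaks were placed in the RefSeq gene of their symbol where the strand was known, also where another gene shared the peak. Of 427 peaks placed so, 39.3% had their centre beyond 80% of the gene's length from its 5′ end. Another 25.1% lay within the first 20%. Over the table the shares were 45.4% and 17.6%. Among the 372 with a single symbol they were 39.8% and 23.1%. Complex I subunits had 30.6% within the first 20%, and outer membrane import genes had 63.6% of 11 beyond 80%. Of 442 peaks whose gene has a promoter window, 30 touched it.

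Levels differed widely between classes when set per kb of peak. The median was 85.3 CPM per kb for the 517 peaks, against 29.2 over the table. It was 336 for complex IV subunits, 235 for complex III, 209 for ATP synthase, 161 for complex II and 147 for complex I subunits. It was lower for outer membrane import (74.5), the large (57.3) and small (38.9) ribosomal subunits, inner membrane import (44.7), complex IV assembly factors (33.1) and complex I assembly factors (26.4). Thus the subunits of the chain had several times the level per kb of the factors that assemble it.

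The leading peaks of highest level were those of Uqcrq, a small complex III subunit, with 990 CPM per kb, and of Cox7c in complex IV with 826 CPM per kb. Uqcrq had 252, 283 and 316 CPM in cadmium livers and 295, 289 and 328 CPM in control livers, and Cox7c had 113, 119 and 132 CPM in cadmium livers and 131, 130 and 144 CPM in control livers. Both overlapped between groups, with log2 changes of -0.10 ± 0.14 and -0.15 ± 0.14. In the other classes the leading peaks of highest level per kb were those of Atp5e (615), Sdhb (424), Ndufa4 (372), Mrpl14 (265), Mrps7 (158), Timm13 (151), Cox17 (140), Tomm7 (136) and Ndufaf7 (58.9 CPM per kb), and their log2 changes lay between -0.18 and 0.09. Ndufa4 carries a complex I name but is now counted as a complex IV subunit.

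**Figure D5:**
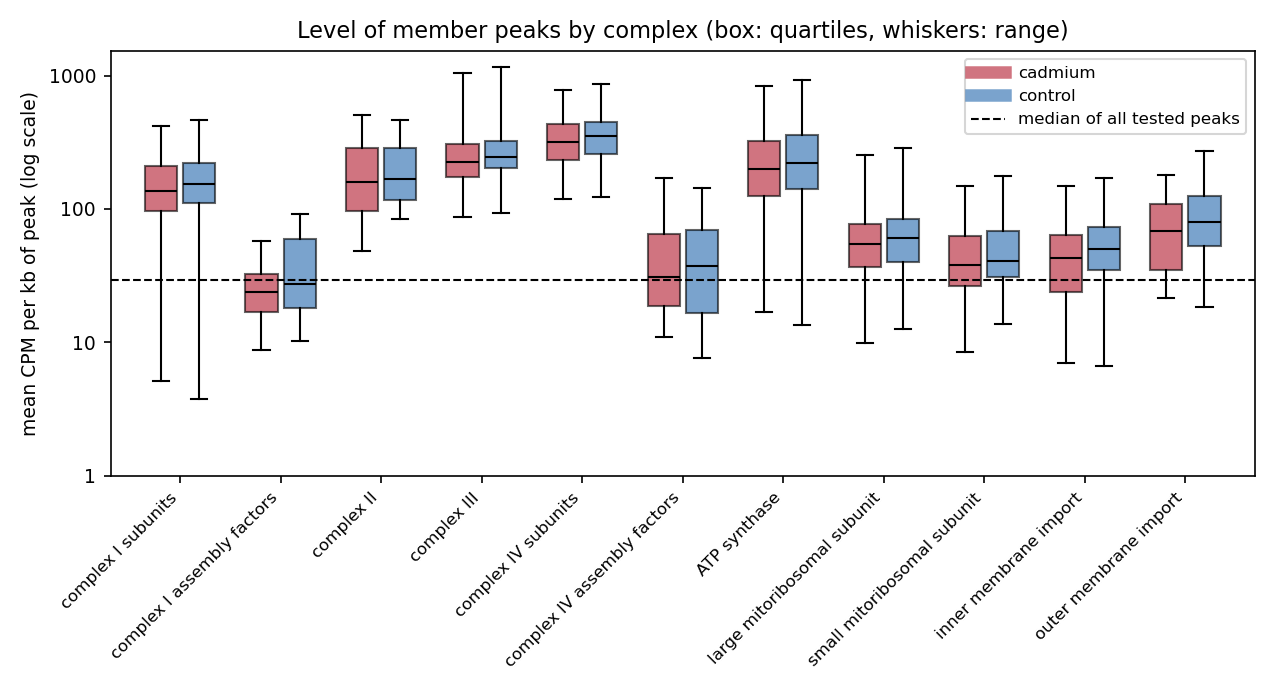
Mean level of each peak in CPM per kb of width (y axis, log scale) by class (x axis), cadmium in red and control in blue; boxes are quartiles, whiskers the range and the dashed line the median of all tested peaks. Complex IV, complex III and ATP synthase lie highest, the assembly factors lie near the dashed line, and the boxes of the groups overlap in every class.

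The authors' deposited table gives its own DESeq2 values. DESeq2 run here on the same counts gave the same numbers below 0.05, 26 of the 517 and 3683 of all peaks, so these are not separate results. By the authors' deposited adjusted p, 26 of the 517 peaks were below 0.05, against 9.92% of all peaks, and the authors' deposited label "Down" was given to 5 and "Up" to 0. Among all peaks of the authors' deposited table, 1.58% were "Down". The 5 were the 4 peaks of Ndufaf4 and peak 2 of Timm9. Peak 1 of Timm9, with an authors' deposited log2 change of -0.97 and adjusted p of 8.35e-05, was not labelled "Down".

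Genes around these machines that the symbols leave out were read from 7 lists, on regulators, mitochondrial DNA and its transcripts, translation factors, assembly, ubiquinone and import. They held 378 peaks in 121 genes, of which 15 peaks were lower and 7 higher. Their share of 5.82% called was near the 6.27% of all tested peaks, and is no result about the lists. Over all lists 244 of the 378 peaks had a log2 change below 0. The median was -0.20 for the biogenesis regulators (51 of 64 below 0), beside -0.14 for the 517 member peaks. It was -0.10 for assembly, -0.09 for import, -0.0022 for mitochondrial DNA upkeep, 0.02 for translation factors and 0.03 for ubiquinone. The values below are those of single genes. For genes named because of a call, only the called peaks are given. All 15 peaks on transcripts of mitochondrial DNA had a log2 change below 0, with a median of -0.32. They lay in 9 genes of the same mitochondrial DNA, so they are not 15 separate observations. None was called in edgeR, 5 had an unadjusted p below 0.05, and DESeq2 called 0, and the groups overlapped in each. In each, cadmium library 1 was the highest cadmium library and not below the lowest control library. Cadmium libraries 2 and 3 lay below every control library in each. The first mt-Cytb peak had 728, 479 and 514 CPM in cadmium livers against 738, 693 and 713 CPM in control livers. Among member peaks, cadmium library 1 was instead the lowest sample in 53.0%.

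Of 12 regulators of mitochondrial biogenesis, Pprc1, a coactivator related to PGC-1 alpha, was called in 3 peaks. The first had 4.54, 6.85 and 5.05 CPM in cadmium livers against 8.53, 9.92 and 9.13 CPM in control livers, which did not overlap. The log2 changes were -0.74, -0.87 and -0.69, with adjusted p of 0.0420, 0.0368 and 0.0422. The better known regulators were not called: Ppargc1a had -0.14 to 0.27 over 7 peaks, Nrf1 had -0.40 and -0.17, Gabpa had -0.30 to -0.01, Tfam had -0.33 and -0.04, and Esrra had -0.47. The mitochondrial RNA polymerase Polrmt had -0.05 to 0.03.

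Among assembly genes, cytochrome c (Cycs) fell in 2 peaks. The larger had 125, 95.5 and 105 CPM in cadmium livers against 155, 184 and 174 CPM in control livers, which did not overlap. It changed by -0.66 ± 0.15 with an adjusted p of 0.0296, but Cycs has near-identical pseudogenes that could share its reads. Higd1a, which acts on complex IV, fell by 0.61 on the log2 scale (adjusted p 0.0461), and so did a peak shared by the complex IV assembly gene Coa6 and Tarbp1, by 0.67 (adjusted p 0.0424). The copper chaperone Sco2 rose in a peak shared with Ncaph2 and Tymp, at 97.5, 123 and 114 CPM in cadmium livers against 67.0, 65.2 and 74.5 CPM in control livers, by 0.69 ± 0.15 with an adjusted p of 0.0215.

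The steepest values of these lists were in ubiquinone genes, in both directions. Coq10b, which binds ubiquinone, was called in 5 peaks, all lower, with log2 changes of -2.55 to -1.98. The peak with -2.27 was shared with E330011M16Rik. The peak with -2.55 ± 0.27 had 3.90, 8.10 and 4.2 CPM in cadmium livers against 34.3, 34.7 and 26.5 CPM in control livers (adjusted p 0.00115), far from any overlap. Coq8a, an atypical kinase needed for ubiquinone synthesis, rose in 4 peaks by 1.05 to 1.68. Its leading value of 1.68 ± 0.21 came from 248, 167 and 227 CPM in cadmium livers against 63.3, 52.2 and 84.5 CPM in control livers (adjusted p 0.00211), again without overlap.

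In import and protein quality control, Chchd4, the oxidoreductase that traps the small Timm proteins and other cysteine-rich proteins between the membranes, fell in 2 peaks by -0.74 and -0.70. The first had 16.3, 18.6 and 16.5 CPM in cadmium livers against 23.7, 32.1 and 30.1 CPM in control livers (adjusted p 0.0243), with no overlap. Hspd1, the mitochondrial chaperonin, fell in 1 peak by -0.55 (adjusted p 0.0457). Clpx, the unfoldase of the matrix protease ClpXP, rose in 2 peaks by 1.06 and 1.09, with 40.2, 27.6 and 44.5 CPM in cadmium livers against 17.8, 17.0 and 19 CPM in control livers in the first (adjusted p 0.0104), with no overlap. No peak of the translation factors was called in edgeR (4 of 34 had an unadjusted p below 0.05, DESeq2 called 0), and none of the genes that maintain mitochondrial DNA was (9 of 44, DESeq2 called 1). Over all 37088 tested peaks, 8086 had an unadjusted p below 0.05.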

How the data were processed

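m6A immunoprecipitation libraries of mouse liver (3 cadmium, 3 control) were analysed from 1 table of 37118 peaks. The deposited counts are raw whole numbers of reads per peak and library, which the authors made with the mm10 build and, per the submitters' processing notes, DESeq2 4.1.0 (version as written there), MACS2 2.1.1, SAMtools 1.3.1, STAR 2.7.1a and cutadapt 1.1.8, with no role given for each. For every peak the authors also deposited p-values, raw and adjusted, and the log2 fold change behind them. Count columns carry library numbers that the IP and input libraries share. They were taken as IP counts because rows are m6A peaks. The strand setting of the counting and the way peaks were merged are not given in the sources used here. Of 12 libraries in the labels, the 6 input libraries were not used here.

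Counts were fitted with edgeR 4.0.16 in R 4.3.3 (filterByExpr with a minimum count of 10, TMM scaling, glmQLFit and glmQLFTest, 37088 peaks, Benjamini-Hochberg adjustment). CPM use TMM-scaled library sizes, and totals of 40174736 to 52338612 counts per library stand behind them, with a coefficient of biological variation of 19.4%. P-values measure the spread between these libraries. Replicates differed by far more than sampling noise (chi-square per degree of freedom of 31.9 to 161). Batch numbers in the labels pair the libraries: same-batch deviations correlated at 0.146, 0.214 and 0.174. Within-batch changes are log2(CPM + 0.1). Alternatives were RLE scaling, library size alone, no filter, DESeq2 1.42.0, a batch block, single-symbol peaks, gene sums, other thresholds and leaving out each library. The fit was tested on simulated data. Gene position and promoters came from RefSeq GRCm38.p6. Members and gene lists were chosen with earlier results of these data known. Named peaks are all called ones, class extremes of leading peaks (highest level per kb, largest rise and fall), core subunits, and called list genes. Ndufab1, Ndufa5, Mrps21, Timm10, Tomm40l, Tomm6, Ndufaf8 and other uncalled genes were named after their values were seen.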

Additional observations from a re-analysis of the deposited data

How the results depend on the processing

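The number of member peaks called was 18. It was 9 with library size alone (all lower; each of the 9 was among the 18), 10 genes by gene sums, 28 at an adjusted p below 0.1, 5 when an absolute log2 change of at least 1 was also asked, and 4 to 15 when 1 library was left out (10 without cadmium library 1, 4 without cadmium library 3, 8 without control library 2 and 9 without control library 3). It was 19 with RLE scaling, 18 without the filter, 26 with DESeq2, 14 among single-symbol peaks and 16 when only peaks inside the RefSeq gene were kept, an alternative chosen after seeing the data. With the batch as a replicate block it was 21, and the block changed no other call of a named peak. Of all tested peaks 2325 were called, against 3683 with DESeq2, 1171 genes by gene sums and 543 to 1976 with 1 library left out (543 without cadmium library 3 and 1078 without control library 3). List peaks called were 22, against 12 with library size alone and 8 to 17 with 1 library left out (8 without cadmium library 3, 13 without control library 2 and 11 without control library 3). The median log2 change of member peaks stayed between -0.18 and -0.07 in all settings, and 0 peaks departed from their gene in each setting run.

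Values near 0 changed sign. By gene sums Atp5o had -0.02 in place of the rise of its peaks 6 and 7, Timm44 -0.18, Cox8a -0.02 and Tomm7 -0.01. With RLE scaling and DESeq2, Cox8a had -0.0069 in both, and Tomm7 had -0.0025 and -0.0024. With the block Cox8a had -0.0095 and Timm44 -0.0018, and with library size alone Uqcr11 had 0.01. The cause was not tested.
With 1 library left out, log2 changes ran from -0.23 to 0.09 for Ndufaf7, -0.05 to 0.25 for Sdhb, -0.12 to 0.07 for Uqcr11, -0.06 to 0.12 for Cox8a, -0.15 to 0.03 for Cox17. They ran from -0.03 to 0.11 for Atp5l-ps2, -0.0043 to 0.23 for Timm50, -0.05 to 0.10 for Tomm7, -0.05 to 0.13 for Cox16, -0.09 to 0.02 for Atp5b, and from -0.28 to 0.04 for Cox15, -0.19 to 0.04 for Cox7a2l, -0.18 to 0.11 for Ndufv1, -0.13 to 0.03 for Sdhc peak 1, -0.09 to 0.14 for Timm44.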
